A study of Mus musculus with 2 samples.

Results

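Keratins are the intermediate filament proteins of epithelial cells. The family was taken as every feature whose gene symbol is Krt followed by a number and at most 1 letter, which gave 53 of the 31253 features counted in newborn mouse tooth germs. By the family numbering, 28 of them are type I (acidic) and 25 are type II (basic to neutral) keratins. The rule reads the symbol alone.

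A keratin filament is built from obligate pairs of 1 type I and 1 type II protein, so an epithelial cell makes members of both types. In stratified epithelia, Krt5 and Krt14 are the classic pair of the basal layer, Krt1 and Krt10 of the suprabasal epidermis, Krt4 and Krt13 of suprabasal oral and oesophageal mucosa, and Krt8 and Krt18 of simple epithelia. In the tooth, the enamel organ is the epithelial part: its inner layer differentiates into ameloblasts, the cells that secrete enamel, while the outer epithelium, stratum intermedium and stellate reticulum surround it, and the enamel knot is a signalling group of its cells.

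The cells came from first molar germs of the lower jaw of newborn C57BL/6 mice and were captured on BD Rhapsody, a microwell system that tags each RNA molecule with a unique molecular identifier (UMI). One library was made from Edarfl/fl mice, in which both copies of Edar, the ectodysplasin receptor gene, are floxed (below, the control library). The other was made from K14cre;Edarfl/fl mice, which carry the same floxed alleles and a Cre recombinase under the keratin 14 promoter, as its name K14cre gives it (the deletion library). Both groups therefore share the floxed alleles, and the driver belongs to a member of the family described here. How many germs, and of which sex, went into each library is not given in the sources used here. With 1 library per group there is no replicate check: no p-value exists, and every interval below is a 95% interval for counting error alone.

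The control library held 13990 barcodes and 73375441 UMIs, of which 13255 cells were kept (median 4444 UMIs). The deletion library held 16029 barcodes and 62158879 UMIs, of which 15244 cells were kept (median 3329 UMIs), and the libraries shared 4 barcodes. Epithelium-like cells numbered 2271 and 1884 (control and deletion, the order used for every pair of values below). Of these, 386 and 878 held Xist UMIs and no Y-linked ones, and 881 and 287 held Y-linked UMIs and no Xist. The mix of such cells thus differed between the libraries. The Edar level of all epithelium-like cells was 34.8 CPM (31.3 to 38.5) and 21.2 CPM (17.9 to 24.9), where CPM is UMIs of the gene per 1000000 UMIs of all genes in the same cells. Which exons are floxed is not given in the sources used here, so an Edar UMI may come from a transcript that lacks them. All 17 immediate early genes of a list had a log2 ratio (deletion over control) above 0 in epithelium, with a median of 0.73 and summed levels of 2474 and 4287 CPM. Of the 14 tested, 1, Fos (496 and 1017 CPM), passed the 2-fold rule given with the library comparison below, which 0.226% of all genes passed. The part of these genes in any keratin difference was not tested.

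Clusters were built with every keratin left out of the genes that placed the cells, and were named from non-keratin markers, so keratin levels were free to vary between them. Of 11 epithelial sub-clusters, 4 took a name: ameloblast-like (205 and 121 cells, led by Amelx and Enam), inner enamel epithelium-like (318 and 234, led by Col22a1), enamel knot-like (154 and 113, led by Wnt10b) and oral keratinocyte-like (165 and 198, led by Krtdap and Ly6d). The enamel knot markers included Edar, the floxed gene, which had 239 and 180 CPM in that sub-cluster. Whether the name holds without Edar was not tested. No sub-cluster met the naming rule for outer enamel epithelium, stratum intermedium or stellate reticulum, so the outer enamel organ is described here only through unnamed sub-clusters called by a leading gene. These were led by Aldh1a7 (463 and 356 cells), Ube2c (317 and 262, with cell division genes), Odam (209 and 144), Enpp2 (183 and 152, with Alpl and Notch3), Aldh1a3 (139 and 208), Mindy4 (84 and 42, median depth 1368.5 and 1208.5 UMIs) and Col3a1 (34 and 54, with bone and connective tissue genes).

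In the genome (mm10), 27 type I genes lie in 1 cluster on chromosome 11 within 1037 kb, and the 25 type II genes lie on chromosome 15 together with the type I gene Krt18, within 685 kb. Taking 50 CPM in a named epithelial subtype of either library as the minimum, 18 keratins were above it, 9 of each type. Krt75 is also described, because it passed a 2-fold rule in the small Mindy4-led sub-cluster, a call that was lost without the 3 richest cells of each library. Of the 18, 14 stand beside another such gene: Krt13 with Krt15, Krt14 with Krt16 and Krt17, Krt80 with Krt7, Krt6b with Krt6a and Krt5, Krt4 with Krt79, and Krt8 with Krt18. The other 4, Krt24, Krt10, Krt23 and Krt1, stand alone among genes below the minimum, and whether such genes lie together more than by chance was not tested. The longest stretch below the minimum on chromosome 11, 9 genes from Krt39 to Krt36 over 592 kb, holds keratins known from hair, with at most 17.6 CPM (Krt36 in oral cells). On chromosome 15 it is the 9 genes from Krt87 to Krt75.

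**Figure D1:**
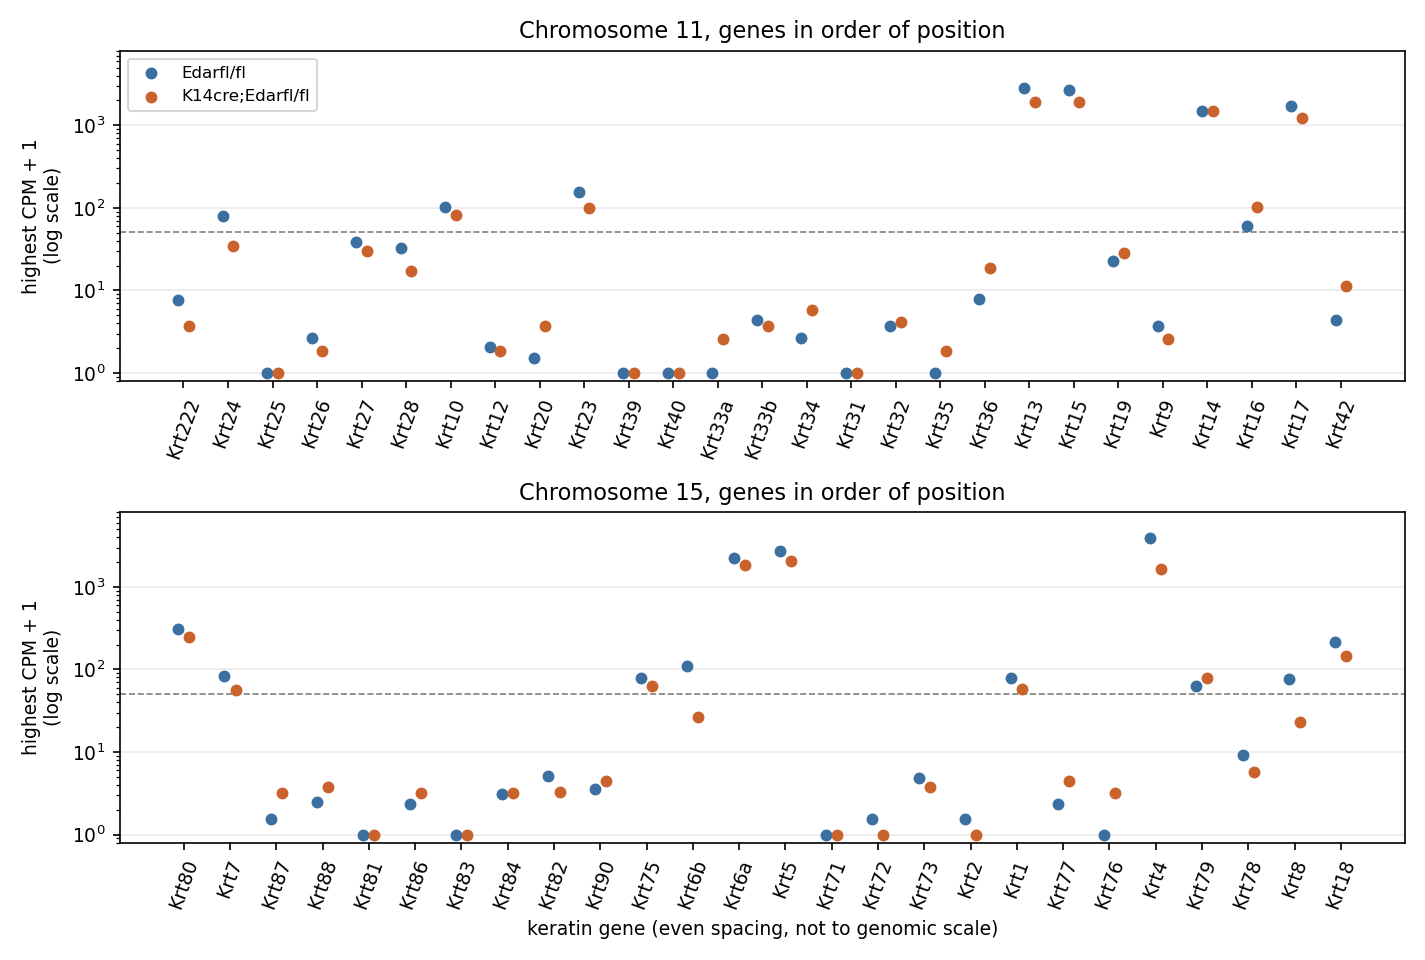
Each point is the highest level of 1 keratin (CPM + 1, log scale) over the 9 epithelial sub-clusters with at least 100 cells in each library, for both libraries, with genes in chromosomal order at even spacing. The dashed line marks 50 CPM. Some genes above it stand side by side, and Krt24, Krt10, Krt23 and Krt1 stand alone. Krt75, highest in Odam-led cells, which have no name, is also above it and stands beside Krt6b, which is above it in the control. The stretch from Krt39 to Krt36 stays below it in both libraries.

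RefSeq promoter windows (GRCm38.p6) were matched for 36 keratins, and 33 of them start within 100 bases of the gene start in the annotation used for positions. The 250 bases before the start were searched on both strands for the exact letters TATAAA (a form of the TATA box), which 12.4% of all 32851 windows hold. It was present in 17 of the 33 keratin windows (51.5%): in 16 of 26 keratins below the level minimum and in 1 of 7 above it, Krt10. Near forms, such as the gataaa close to the end of the Krt5 window below, were not counted, so a window without TATAAA may still hold a TATA box. A few windows are shown to set expressed members beside one with no UMI, with motif matches in capitals: Krt5 and Krt18 were expressed here and hold no TATAAA, Krt10 was expressed and holds it, and Krt31, a hair keratin, had no UMI in either library and holds it.
Krt5 (chr15:101712906-101713155, minus strand): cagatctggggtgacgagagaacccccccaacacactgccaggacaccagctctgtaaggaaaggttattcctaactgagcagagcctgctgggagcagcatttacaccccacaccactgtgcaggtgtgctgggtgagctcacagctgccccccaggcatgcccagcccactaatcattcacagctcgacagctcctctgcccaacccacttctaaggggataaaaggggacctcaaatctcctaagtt
Krt18 (chr15:102027966-102028215, plus strand): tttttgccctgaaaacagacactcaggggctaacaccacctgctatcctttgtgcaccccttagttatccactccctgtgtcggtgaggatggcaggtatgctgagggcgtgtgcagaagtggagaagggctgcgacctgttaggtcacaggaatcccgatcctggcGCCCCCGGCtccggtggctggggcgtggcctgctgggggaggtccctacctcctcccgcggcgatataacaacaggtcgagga
Krt10 (chr11:99389365-99389614, minus strand): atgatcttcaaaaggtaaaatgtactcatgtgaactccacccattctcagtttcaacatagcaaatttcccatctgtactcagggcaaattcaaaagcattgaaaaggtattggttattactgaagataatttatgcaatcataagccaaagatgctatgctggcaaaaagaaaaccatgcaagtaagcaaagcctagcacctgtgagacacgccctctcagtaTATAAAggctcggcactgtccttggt
Krt31 (chr11:100050552-100050801, minus strand): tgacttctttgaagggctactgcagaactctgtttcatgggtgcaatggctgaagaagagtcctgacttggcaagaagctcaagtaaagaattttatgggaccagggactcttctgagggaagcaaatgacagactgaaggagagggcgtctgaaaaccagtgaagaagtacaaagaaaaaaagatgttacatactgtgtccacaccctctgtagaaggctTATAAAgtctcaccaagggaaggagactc
The TATAAA of Krt10 begins 26 bases before the start site and that of Krt31 29 bases before it. The capitals in Krt18 are a match to GCCNNNGGC, a binding motif of AP-2 factors, which stood in 4 of the 33 keratin windows (12.1%) and 13.7% of all windows. The AP-1 motif TGANTCA stood in 1 keratin window, that of Krt13 (3.03%, beside 6.75% of all windows). A match describes the letters in these windows and is no evidence that a factor binds there.

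Krt5, Krt14 and Krt17 were present in every epithelial sub-cluster of both libraries. Krt5 (chr15:101707070-101712898, minus strand) had 1080 CPM in control and 875 CPM in deletion epithelium. Over the 9 sub-clusters with at least 100 cells in each library, its lowest, median and highest levels were 475, 889 and 2699 CPM in the control and 326, 771 and 2052 CPM in the deletion library. The Aldh1a3-led cells stood at the bottom and the oral cells at the top in both. With every cell thinned to 1900 UMIs, 76.7% and 69.4% of epithelial cells held a Krt5 UMI, against 1.24% and 0.78% of endothelium-like cells, which show the level of free RNA.

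Krt14 (chr11:100203162-100207548, minus strand), whose gene gives the Cre driver its name, had 666 CPM (651 to 682) in control and 645 CPM (627 to 665) in deletion epithelium. Its UMIs were found in 59.3% and 59.0% of thinned epithelial cells and in 0.62% and 0.52% of endothelial ones. Across the 9 larger sub-clusters it ran from 322 to 1486 CPM in the control and from 254 to 1503 CPM in the deletion library. Every epithelial sub-cluster, the low ones included, thus held Krt14 far above the endothelial level of 3.92 and 3.06 CPM.

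Krt17 (chr11:100256217-100261029, minus strand), a type I keratin of appendages and of activated epidermis, had the widest spread of the pan-epithelial members. It was lowest in ameloblast-like cells, at 123 CPM (101 to 147) and 126 CPM (95.5 to 164). It was high in the Enpp2-led cells, at 1340.0 CPM (1261 to 1423) and 1217 CPM (1129.6 to 1310), and in oral cells, at 1691 CPM (1598 to 1788) and 1081 CPM (1001 to 1166): the oral cells were the higher of these in the control and the Enpp2-led cells in the deletion library. In thinned cells the share with a Krt17 UMI was 19.7% and 20% in ameloblast-like cells and 83.6% and 84.2% in Enpp2-led cells. The order of Krt14 was the opposite between these groups: the Enpp2-led cells had 322 and 353 CPM of Krt14, and ameloblast-like cells 1109 CPM (1043 to 1178) and 1320.4 CPM (1216 to 1432).

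**Figure D2:**
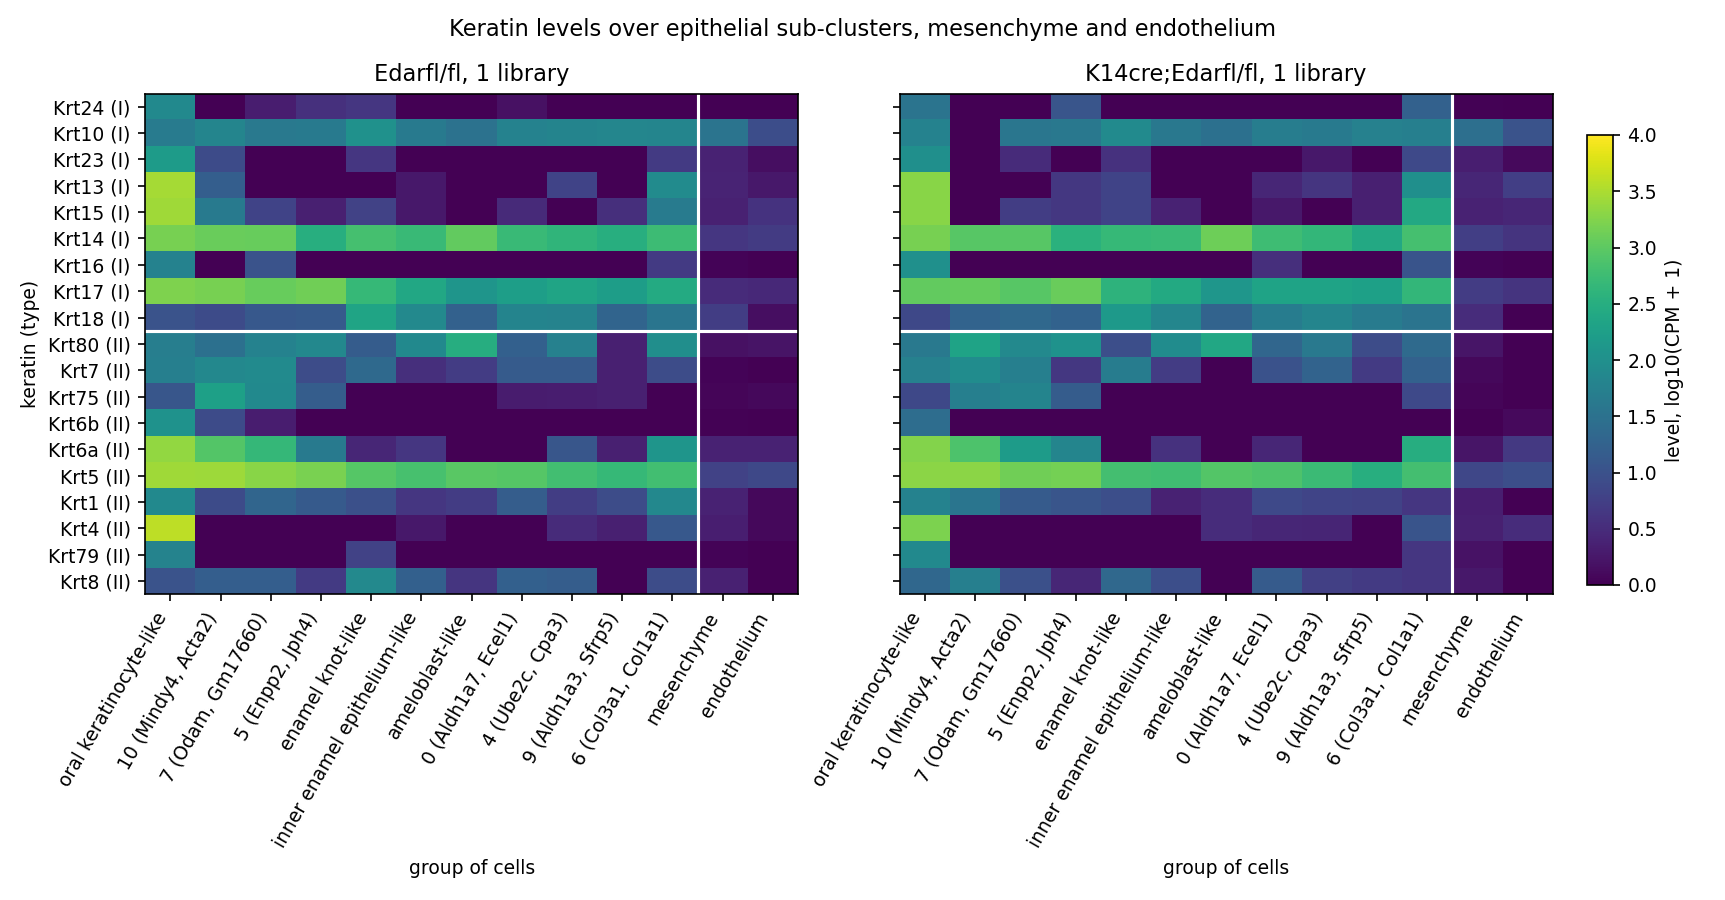
Levels (log10 of CPM + 1) of the 19 named keratins in the 11 epithelial sub-clusters and in mesenchyme and endothelium, 1 panel per library, with type I above the white line and type II below it. Krt5, Krt14 and Krt17 are filled across all sub-clusters, Krt80 is brightest in ameloblast-like cells of the control, and Krt13, Krt15 and Krt4 are bright in oral cells and weak elsewhere apart from the small Col3a1-led sub-cluster.

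Ameloblast-like cells had the highest level of Krt80, a type II keratin found in many differentiating epithelia. Krt80 (chr15:101347444-101370162, minus strand) had 308 CPM there in the control (274 to 345, 294 UMIs) and 248 CPM in the deletion library (204 to 299, 110 UMIs). Inner enamel epithelium-like cells had 78.9 CPM (64.0 to 96.1) and 86.4 CPM (66.4 to 111), Enpp2-led cells 72.1 and 107 CPM, and Aldh1a3-led cells 1.24 and 7.59 CPM. In the small Col3a1-led and Mindy4-led sub-clusters Krt80 had 95.1 and 23.2 CPM and 28.9 and 212 CPM, from at most 25 UMIs. Among thinned cells, 36.7% and 31.4% of the ameloblast-like and 11.6% and 13.4% of the inner enamel epithelium-like cells held a Krt80 UMI.

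Krt27, a type I keratin known from the inner root sheath of hair, was also highest in ameloblast-like cells. It had 37.7 CPM (26.4 to 52.2, 36 UMIs) and 29.3 CPM (15.6 to 50.2, 13 UMIs), and 8.85 and 9.60 CPM in inner enamel epithelium-like cells. Of its transcript's 31-base words, 17.8% occur in other genes, mostly in Krt25 of the same gene run, which had no UMI in the 9 larger sub-clusters. Krt28, of the same gene run, was highest in another place, the Enpp2-led cells of the control, at 31.6 CPM (20.5 to 46.7, 25 UMIs), with 10.2 CPM (3.74 to 22.2, 6 UMIs) in the deletion library.

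Enamel knot-like cells held the highest levels of Krt8 and Krt18, the pair of simple epithelia. Krt18 (chr15:102028180-102032027, plus strand) had 212 CPM (177 to 253) in control and 145 CPM (108 to 189) in deletion cells, and 16.8 and 18.1 CPM in ameloblast-like cells. Krt8, its type II partner and neighbour on chromosome 15, had 75.8 CPM (55.3 to 101, 45 UMIs) and 21.9 CPM (9.44 to 43.1, 8 UMIs). The intervals do not overlap between the libraries for Krt8 and overlap for Krt18. Krt10 was also highest in these cells, at 103 and 82.0 CPM, although it was spread over all larger sub-clusters from 31.4 CPM upward in the control. Of Krt8's 31-base words, 32.3% also occur elsewhere, mostly in the pseudogene Krt8-ps, so its counts are less certain than those of Krt18 (11.4%).

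The Odam-led sub-cluster, named for a gene of the junctional and maturation-stage enamel epithelium, held Krt6a, Krt75 and Krt7 beside Krt5 and Krt17. Krt6a, a type II keratin of oral mucosa and activated epidermis, had 469 CPM (426 to 514) in the control and 157 CPM (123 to 197) in the deletion library. Krt75, a type II keratin of the hair follicle's companion layer and of enamel, had 77.0 CPM (60.4 to 96.9) and 62.2 CPM (41.7 to 89.4), and Krt7, a simple-epithelial type II keratin, 81.3 CPM (64.1 to 102) and 51.5 CPM (33.0 to 76.6). In the shallow Mindy4-led cells Krt75 had 188 CPM from 26 UMIs and 52.9 CPM from 3 UMIs. In ameloblast-like cells Krt75 and Krt6a had no UMI in either library.

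Oral keratinocyte-like cells, taken as 1 sub-cluster, had the richest set, although keratins differed between its parts, as the finer clustering below gives. All keratins together made up 1.83% and 1.26% of their UMIs, against 0.26% in ameloblast-like cells of both libraries, and a thinned oral cell held 4.47 and 4.55 different keratins on average, against 2.39 and 2.30. Krt4 (chr15:101918535-101924735, minus strand) stood at 3936 and 1638 CPM, Krt13 (chr11:100117327-100121566, minus strand) at 2858 and 1937 CPM, and Krt15, a basal type I keratin (chr11:100131758-100135928, minus strand), at 2657 and 1935 CPM. In the other 8 larger sub-clusters Krt4 reached at most 2.26 CPM, and Krt13 and Krt15 at most 5.46 CPM. Krt6a had 2233 and 1818 CPM. The rarer Krt23, Krt24, Krt79, Krt6b and Krt16 were also highest in these cells among the larger sub-clusters, between 25.6 and 154 CPM, as were Krt19 (21.8 and 27.2 CPM) and Krt36 (6.81 and 17.6 CPM) below the minimum. Krt79 rested on 1 cell with 45 UMIs in the control and on 7 cells in the deletion library.

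A finer clustering of the epithelium (resolution 1.0 in place of 0.6) divided the oral cells between 2 clusters, and keratins differed between these although they took no part in it. One cluster was led by Igfbp3 and Fat2 (109 and 125 cells, unnamed), the other by Krtdap, Idi2 and Calm4 (63 and 76 cells, oral keratinocyte-like). The first held 102 and 122 of the 165 and 198 cells of the oral sub-cluster. It had no UMI of the oral markers Calm4 and Sprr3 in either library, and 108 and 141 CPM of Krtdap. The second had 3349 and 2055 CPM of Krtdap and 2215 and 757 CPM of Calm4. In the first, Krt13 had 4.70 and 7.29 CPM and Krt4 had 2.35 CPM (1 UMI) and no UMI. In the second, Krt13 had 6425 and 5542 CPM, with UMIs in 82.5% and 81.6% of cells, and Krt4 had 8855 and 4698 CPM, with UMIs in 38.1% and 42.1%.

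Krt6a followed the same division (139 and 156 CPM against 4844 and 4923 CPM), as did Krt23, Krt79 and Krt6b, which had at most 1 UMI in the first cluster. Krt5, Krt14, Krt15 and Krt17 were present in both clusters. Krt15 had 799 and 812 CPM in the first and 4936 and 4019 CPM in the second, and Krt5 1458 and 1328 CPM against 4253 and 3422 CPM. Krt10 had 56.4 and 65.7 CPM in the first and 27.6 and 41.3 CPM in the second, with overlapping intervals in both libraries, and Krt8 had 16.5 and 29.2 CPM in the first, and no UMI and 1 UMI in the second. Median depths were 3002 and 2599 UMIs in the first cluster and 4356 and 2706 UMIs in the second.

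**Figure D3:**
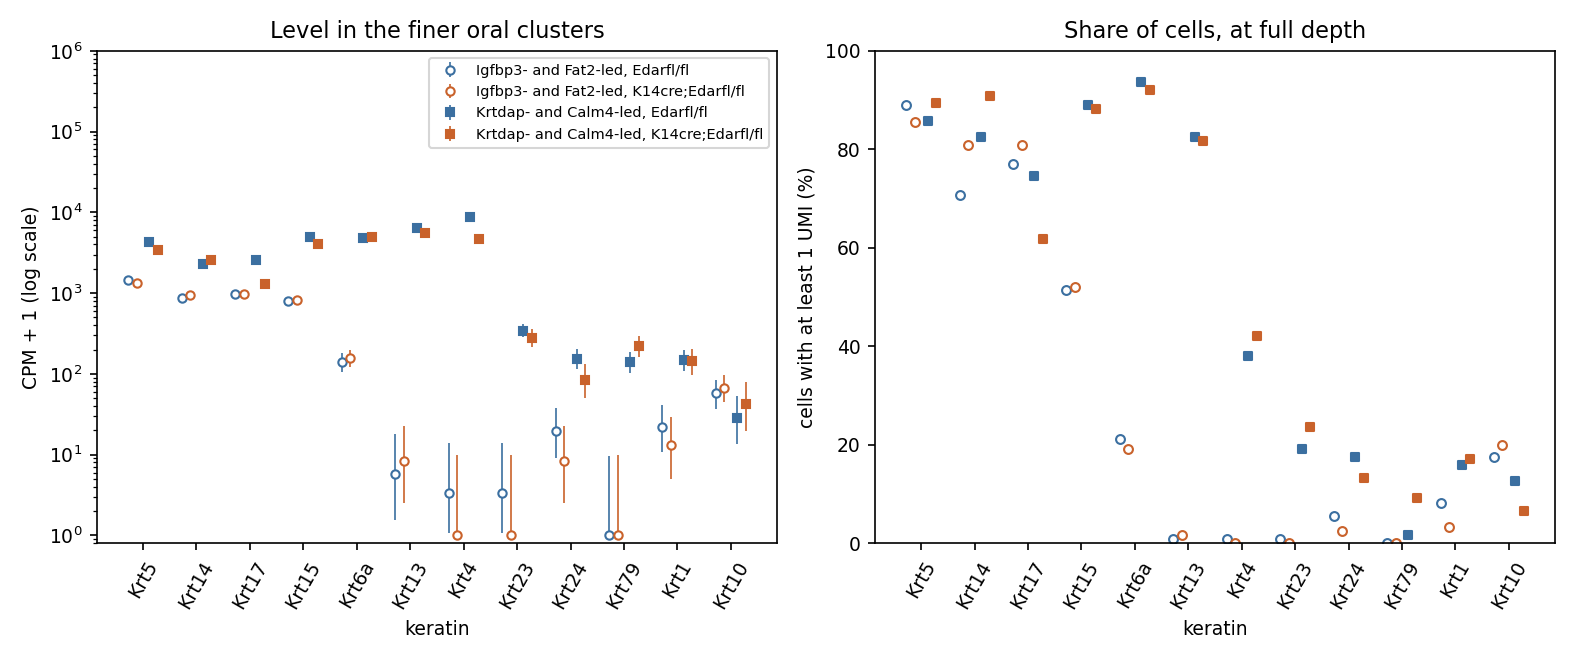
Level (left, CPM + 1 on a log scale with 95% counting intervals) and share of cells with a UMI at full depth (right, %) of 12 keratins in the finer oral clusters, open circles for the Igfbp3- and Fat2-led cluster and squares for the Krtdap- and Calm4-led one. Krt13, Krt4, Krt23 and Krt79 are near 0 in the first and present in the second in both libraries, while Krt5, Krt14, Krt17 and Krt15 are present in both.

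Epithelium-like cells held 89.2% of the 40119 keratin UMIs of kept control cells and 86.2% of the 23408 of deletion cells. Outside the epithelium, Krt10, Krt222 and Krt18 were found in mesenchyme-like cells. Krt10 had 34.1 CPM (32.4 to 35.9) and 27.5 CPM (25.9 to 29.2) in mesenchyme-like cells, 62.7% and 58.8% of its epithelial level, where the same share was 0.49% and 0.70% for Krt14. Krt222, a type I family member of unusual structure, was higher in mesenchyme, at 18.9 CPM (17.6 to 20.2) and 8.94 CPM (8.02 to 9.94), than in epithelium, at 1.44 and 1.02 CPM. Its highest levels were 34.5 and 30.3 CPM, in the cluster led by Dmp1 and Dspp, genes of odontoblasts. Krt18 had 4.24 and 2.27 CPM in mesenchyme as a whole, and more in single clusters of it. In the one led by Epha3 and Igfbp3 it had 59.4 CPM (47.2 to 73.8, 81 UMIs in 38 of 378 cells) and 13.6 CPM (7.90 to 21.7, 17 UMIs in 15 of 427 cells), and in the one led by Fst 30.2 and 25.4 CPM. In glia-like cells Krt80 had no UMI in 38 control cells, which allows up to 31.8 CPM, and 50.1 CPM (30.2 to 78.3) from 19 UMIs in 13 of 108 deletion cells, and Krt7 had 29.9 and 41.6 CPM in osteoclast-like cells.

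Below 5 CPM in every epithelial sub-cluster of both libraries were 24 members, 13 of type I and 11 of type II. Together they held 224 and 133 UMIs over all barcodes, before cells were filtered. Krt31, Krt39 and Krt40 had no UMI in either library, and 22 of the 24 were also below 5 CPM in every other cell class. Most of the 24 are keratins known from the hair shaft or the inner root sheath (Krt25, Krt26, Krt32, Krt33a, Krt33b, Krt34, Krt35, Krt71, Krt72, Krt73, Krt81, Krt82, Krt83, Krt86 and Krt87 among them). Others are Krt12 of the cornea, Krt20 of the gut, and Krt2, Krt9 and Krt77 of skin.

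Co-detection of pair members was counted in cells thinned to 1900 UMIs and set beside the product of the single shares, the value for 2 independent genes. For Krt5 and Krt14 it was 47.4% (45.2 to 49.6) of control and 44.2% (41.7 to 46.8) of deletion epithelial cells, with products of 45.4% and 40.9%. Within ameloblast-like cells it was 66.5% and 61.9%, with products of 66.4% and 62.9%, and in endothelium 0 of 971 and 0 of 769 cells held both. Krt5 and Krt17 were found together in 76.3% and 76.7% of Enpp2-led cells (products 77.5% and 77.9%). In the ameloblast-like and Enpp2-led cells the intervals of these shares held the products. In whole deletion epithelium, which mixes the sub-clusters, the share of 44.2% lay above its product. All such shares depend on depth: at full depth Krt5 and Krt14 were together in 70.4% and 61.2% of epithelial cells, and with at least 2 UMIs of each asked of thinned cells in 18.1% and 15.7%.

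Krt4 and Krt13 were found together more often than the product of their shares. In thinned oral cells, 12.4% (7.3 to 19.4) and 12.0% (7.1 to 18.5) held both, where the products were 3.56% and 4.36%. Every control cell with Krt4 (100%) also held Krt13, as did 85.0% in the deletion library, and Krt13 was found in 28.68% and 30.99% of these cells. Both genes fall in the same finer cluster, as given above. Krt6a and Krt16, a pair of activated epidermis, were together in 4.65% and 4.23% of thinned oral cells (products 2.20% and 1.73%). Of the 31-base words of Krt6a 51.7%, and of Krt16 51.9%, occur in other genes, for Krt6a mostly in Krt6b, so counts of these genes may be divided with near-identical copies.

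Krt8 made up 22.7% (19.57 to 25.99) of Krt8 and Krt18 UMIs in control and 15.9% (12.41 to 19.98) in deletion epithelium, and these intervals overlap. Of the 4 larger sub-clusters with enough UMIs of the pair in both libraries, its share was lower in the deletion library in 3, with intervals apart in 0. UMIs of both Krt8 and Krt18 were in 0.50% of thinned control epithelial cells. Krt1 and Krt10 were distributed differently: Krt10 was spread over the sub-clusters, while Krt1 reached 77.6 and 57.6 CPM in oral cells and had 4.19 and 2.26 CPM in ameloblast-like cells.

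The balance of the types was nearly even. Type I genes held 49.8% (49.3 to 50.4) of the keratin UMIs of control and 54.3% (53.7 to 55.0) of deletion epithelium. Divided by transcript length, the shares were 57.8% and 62.2%. Across the 9 larger sub-clusters the control share ran from 46.7% in the Aldh1a7-led to 59.3% in the enamel knot-like cells. In mesenchyme, where Krt10 and Krt222 were found, it was 82.5% and 79.9%.

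**Figure D4:**
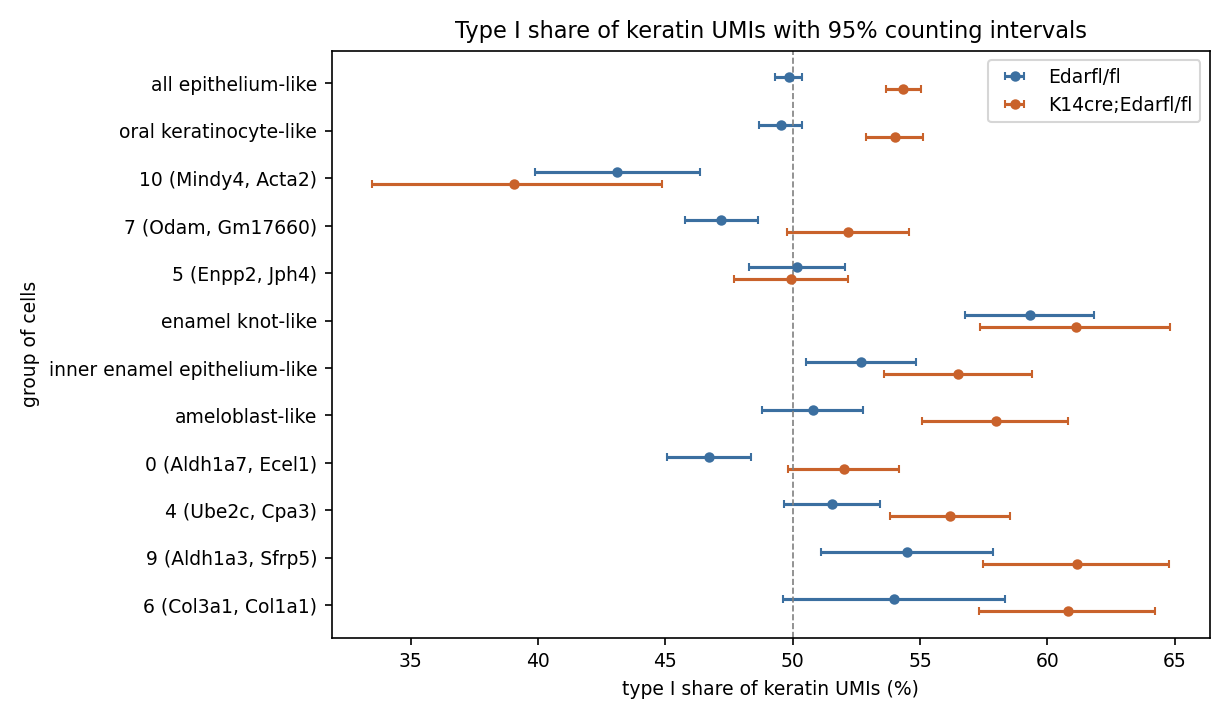
Type I share of all keratin UMIs (%, points) with 95% counting intervals for each epithelial group in both libraries; the dashed line marks 50%. The deletion library lies to the right of the control in 9 of the 11 sub-clusters, all but the Enpp2- and the Mindy4-led ones, and both libraries lie between 39.1% and 61.2%.

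Between the libraries, no keratin passed the 2-fold rule in epithelium as a whole. The rule asks for at least 50 CPM in 1 library, at least 2-fold between CPM + 5, and an interval of the count ratio without 1. It called 8 of 3547 genes there (0.226%) and 0 of the 10 keratins tested. Over the 20 keratins with at least 5 CPM the median log2 ratio (deletion over control, of CPM + 5) was -0.19, with 18 below 0 and 2 above, beside a median of -0.05 over all 10698 genes at that level. The share of all genes below 0 was not counted. Over the 9 larger sub-clusters the keratin median ran from -0.37 in oral (14 of 22 below 0) to -0.03 in Enpp2-led cells (7 of 13). It was -0.08 in ameloblast-like cells (4 of 7 below 0), where all genes had -0.10, and 0.25 in the small Col3a1-led sub-cluster.

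Among Krt5, Krt14, Krt17, Krt10 and Krt18, the most steady difference was in Krt5. It was lower in the deletion library in all 9 larger sub-clusters, and the interval of the ratio lay below 1 in 7 of them. Krt10 was lower in 8 (interval below 1 in 1), Krt17 in 5 and Krt18 in 4. How many of all genes were lower in all 9 was not counted. In epithelium as a whole the ratio of Krt5 was 0.78 to 0.84, a log2 ratio of -0.30. Krt14, its partner, was lower in 3 of the 9, with the interval below 1 in those 3 and above 1 in another 2, and its epithelial ratio was 0.93 to 1.01. Krt5 therefore made up less of the sum of Krt5 and Krt14 UMIs in deletion cells in all 9 (57.5%, 56.6 to 58.5, against 61.8%, 61.1 to 62.5, in epithelium), with intervals apart in 4. The type I share was higher in the deletion library in 8 of the 9, with intervals apart in 5. With 1 library each, a difference of genotype and one between these preparations cannot be told apart.

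**Figure D5:**
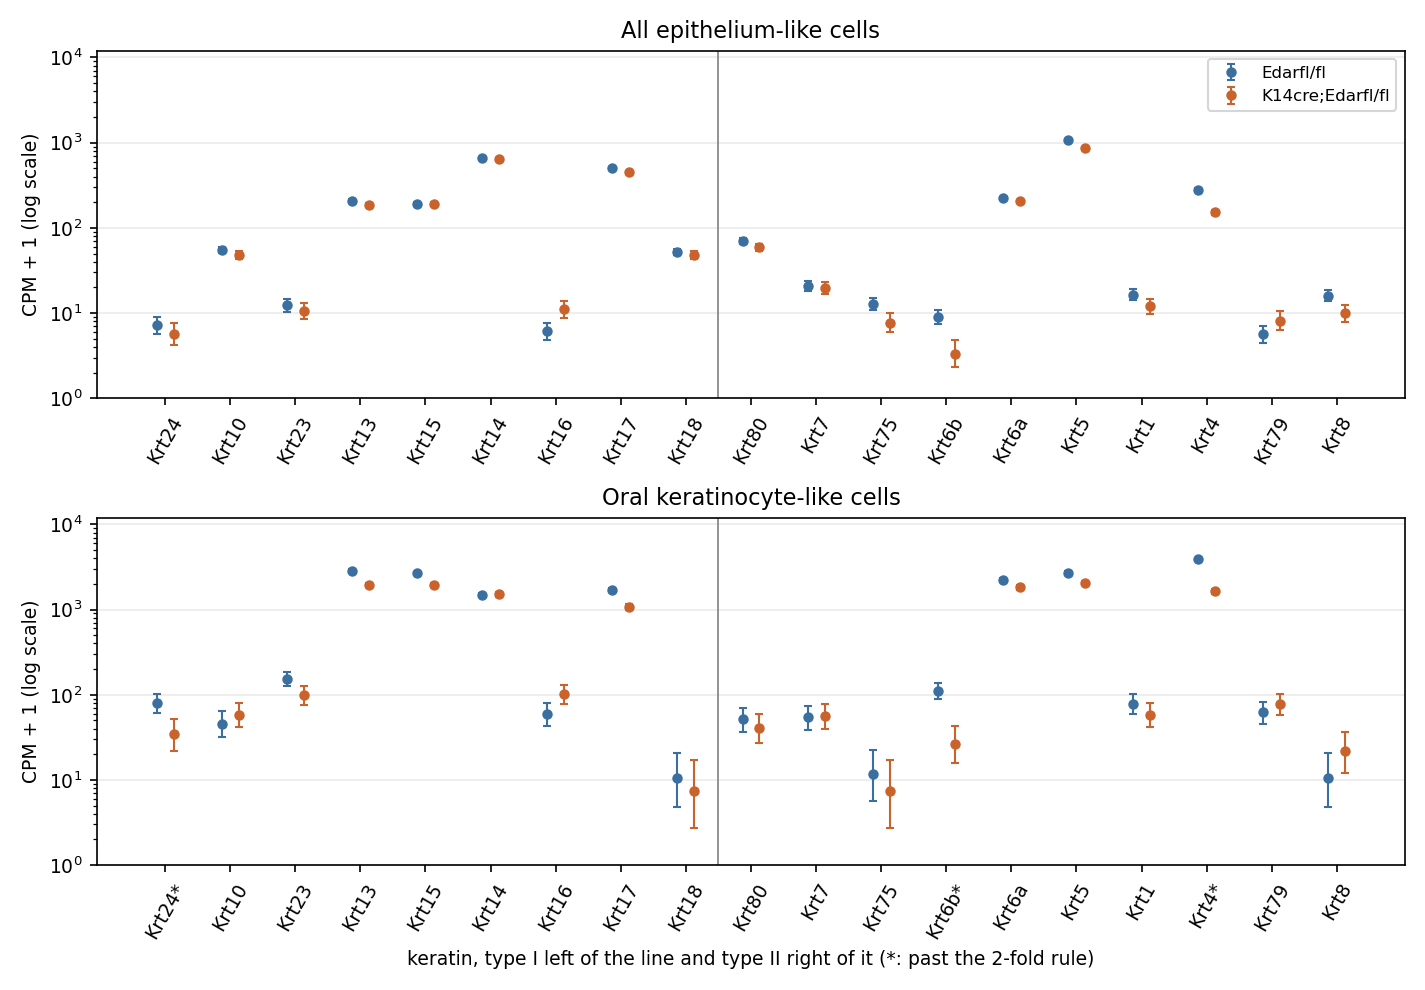
Levels (CPM + 1, log scale) of the 19 named keratins in the control (blue) and deletion (orange) library with 95% counting intervals, in all epithelium-like cells (top) and oral keratinocyte-like cells (bottom); asterisks mark members past the 2-fold rule. None is marked in whole epithelium, and Krt24, Krt6b and Krt4 are marked in oral cells, all lower in the deletion library.

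By sub-cluster, no keratin passed the rule in the ameloblast-like (1.38% of all genes called there), inner enamel epithelium-like (0.511%), Aldh1a7-led (0.33%), Ube2c-led (0.46%), Enpp2-led (0.893%) and Aldh1a3-led (2.34%) cells, with 4 to 6 keratins tested in each. In oral cells 3 of 16 were lower and none higher, where 1.89% of 3546 genes were called in either direction. In Odam-led cells 1 of 7 was lower (background 1.42%) and in enamel knot-like cells 1 of 6 (background 3.46%). In the small Col3a1-led sub-cluster 4 of 9 keratins were called (background 6.23%) and in the Mindy4-led one 2 of 9 (background 4.3%), both given with the closing observations. The 5 calls in the larger sub-clusters are described next with the cells behind them.

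In oral cells Krt4 had 2891 control and 1024 deletion UMIs, a log2 ratio of -1.26. These UMIs came from few cells: 25 of 165 control cells (15.2%, 10.1 to 21.5) and 32 of 198 deletion cells (16.2%, 11.32 to 22.04) held any. The richest 3 cells held 61.4% of the control UMIs, the top one 687, and 47.1% of the deletion UMIs, the top one 292. Without those 3 cells of each library the levels were 1579 and 889 CPM, and the log2 ratio of -0.83 was no longer past 2-fold. In oral cells with Xist UMIs and no Y-linked ones (31 and 82 cells) Krt4 had 796 and 1022 CPM, and in those with Y-linked UMIs only (59 and 36 cells) 1618 and 1805 CPM. The ratio was 1.02 to 1.62 in the first and 0.94 to 1.31 in the second, so the lower level of the deletion library was in neither. These cells held 106 and 530 of the 2891 control UMIs and 293 and 203 of the 1024 deletion UMIs, and the remainder was in cells with both kinds of UMI or none. The shares of oral cells with Krt4 had overlapping intervals, and leaving out the 3 richest cells ended the call.

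Krt6b had 81 UMIs in 7 control cells and 16 in 5 deletion cells (log2 ratio -1.91), and Krt24 58 UMIs in 17 cells and 21 in 13 cells (-1.12). Without the 3 richest cells of each library neither passed the rule (-1.74 and -0.45). Krt6b, at 27.9 and 4.86 CPM, was then under the minimum of 50 CPM, with a ratio of 0.03 to 0.59. The ratio of Krt24 was 0.31 to 1.48. Krt13, the partner of Krt4, was at -0.56 with all cells and at -0.15 without the 3 richest. It was at 0.04 in oral cells with Xist only and at 0.69 in those with Y-linked UMIs only (1685 and 2730 CPM, ratio 1.40 to 1.87), so its direction turned. At full depth UMIs of it were in 32.1% and 32.3% of oral cells. Krt15 was found in 67.9% and 66.7% and Krt6a in 49.7% and 47.5% of them. The counting intervals of the levels treat UMIs as independent and are too narrow where single cells hold so many.

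In the Odam-led cells Krt6a had 444 UMIs in 39 of 209 control cells and 73 UMIs in 19 of 144 deletion cells (log2 ratio -1.55). Without the 3 richest cells of each library it was at -1.93, still past the rule. Its share of thinned cells was 14.1% (9.443 to 20.02) and 13.5% (7.8 to 21.3), with overlapping intervals. Mesenchyme genes summed to 1230 and 4073 CPM in this sub-cluster. Their part in this difference was not tested. In enamel knot-like cells Krt8 was in 34 of 154 control cells with 45 UMIs and in 8 of 113 deletion cells with 8 UMIs (-1.59, and -1.86 without the 3 richest cells). No cell there held more than 3 Krt8 UMIs. In thinned cells the shares were 10.4% (5.9 to 16.6) and 3.06% (0.6 to 8.7), whose intervals overlap, and Krt18 stood at -0.54 in the same cells (ratio 0.49 to 0.95).

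Genes that work with keratins were taken as fixed lists. Desmosome genes, which anchor keratin filaments at cell contacts, had 10 of 12 members at 5 CPM or more in epithelium, with 6 above and 4 below 0, a median log2 ratio of 0.03 and none past the rule. Dsp, the plaque protein that binds keratins, had 582 and 606 CPM, Dsc3 436 and 447 CPM, and Perp 994 and 834 CPM. Hemidesmosome genes, which anchor keratins to the basement membrane, had all 9 members measured, 3 above and 6 below 0 (median -0.04) and none past the rule. Among them Itga6 had 393 and 402 CPM, Dst 356 and 366 CPM, and Lamb3 234 and 191 CPM.

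Transcription factors known to act on keratin genes had 13 of 16 members measured in epithelium, 8 above and 5 below 0 (median 0.17), with none past the rule. In ameloblast-like cells 1 of 5 tested was lower past it (background 1.38%). Higher past it were 1 of 4 in Odam-led (1.42%), 1 of 6 in enamel knot-like (3.46%), 1 of 5 in Aldh1a3-led (2.34%) and 2 of 6 in Col3a1-led cells (6.23%). None was called in the other sub-clusters. Trp63, the master factor of stratified epithelium, had 281 and 228 CPM (ratio 0.76 to 0.86), Klf4 462 and 425 CPM, and Hes1 165 and 199 CPM. Among other intermediate filament genes, 5 of 16 were measured in epithelium (median 0.07), none past the rule. In enamel knot-like cells 1 of 3 tested was higher past it (background 3.46%). The lamin gene Lmnb1 had 253 and 214 CPM, and Vim, the mesenchymal filament gene, 148 and 175 CPM.

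Among keratin linkers and cornified envelope genes some were called in oral cells. In epithelium all 7 measured of 12 lay below 0 (median -0.63). In oral cells 8 of 10 lay below 0 (median -0.87), and 4 of the 6 tested were lower past the rule, beside 1.89% of all genes called there: Sprr1a (212 and 84.8 CPM), Sprr3 (433 and 25.6 CPM), Lor (118 and 4.798 CPM) and Sprr1b (178 UMIs, and none in the deletion library). In other sub-clusters few members were measured and none was called, with medians from -0.60 in ameloblast-like (3 of 3 below 0) to 2.18 in Mindy4-led cells (4 of 5 above 0): 4 of 4 lay above 0 in enamel knot-like cells (median 1.33), 3 of 4 in Odam-led (0.15) and 3 of 4 in Enpp2-led cells (0.12). Sprr3 UMIs came from 7 cells in each library, and 3 cells held 98.7% of those of the control. Cornified envelope genes are known from the last steps of keratinocyte differentiation.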

How the data were processed

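Single-cell libraries, 1 of each genotype, were deposited by the authors as raw UMI counts per gene and barcode. STARsolo and the mouse build mm10 are named per the submitters' processing notes; the annotation and settings they used are not stated in any label or header. Cells with at least 500 genes and at most 20% mitochondrial UMIs were kept, and doublets called by Scrublet (1.31% and 1.57%) were removed. Cells were clustered with scanpy 1.11.5 (Python 3.11.15; 2000 variable genes without keratins, 30 components, 15 neighbours; sub-clusters at resolution 0.6). A name needed at least 3 detected non-keratin markers. Counts were summed per group and library and divided by the group's UMIs (CPM), with exact Poisson intervals, and shares of cells with exact binomial (Clopper-Pearson) ones; UMI intervals cover counting error only. Shares were counted after each cell was thinned to 1900 UMIs, so 261 and 351 shallower epithelial cells (control, deletion) dropped out. Log2 ratios used CPM + 5. The 2-fold rule was tested on simulated counts with independent UMIs, a setting unlike oral cells, where few cells hold many UMIs. Clustering and naming were not tested in this way. Named keratins had at least 50 CPM in a named epithelial subtype or passed the 2-fold rule. Of partner lists the 3 highest members and those past the rule in epithelium or oral cells were named. The keratin family, defined by symbol, and the lists were chosen with earlier results of these data known. Leaving out the 3 richest cells, or the small sub-clusters, was added after seeing the data.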

Additional observations from a re-analysis of the deposited data

Results flagged for a closer look

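Opposite directions between the libraries were seen in sub-clusters for 2 keratins, and these differences between sub-clusters were not tested. Krt6a had a log2 ratio of 1.32 in the Col3a1-led cells and of -1.55 in the Odam-led cells. Krt80 had a log2 ratio of 2.68 in the Mindy4-led cells, from 4 and 12 UMIs, and of -1.83 in the Col3a1-led cells, from 25 and 7 UMIs. The Col3a1-led (34 and 54 cells) and Mindy4-led (84 and 42 cells) sub-clusters are under the minimum of 100 cells per library. In the Col3a1-led cells 4 of 9 keratins passed the rule (6.23% of all genes): Krt6a, Krt80, Krt15 at 2.40 (12 and 79 UMIs) and Krt1 at -3.22 (19 and 1 UMIs), which lost its call without the 3 richest cells of each library. In the Mindy4-led cells 2 of 9 passed (4.3% of all genes): Krt80 and Krt75 at -1.73 (26 and 3 UMIs), which lost its call in the same way.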

How the results depend on the processing

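No paired analysis was possible because each group has 1 library. Of 53 keratins, 18 passed 50 CPM in a named subtype, and 9 passed 200 CPM. In whole epithelium no keratin passed 2-fold, and 1 did under each of 4 alternatives: Krt4, lower, with equal sub-cluster weights, under a stricter cell filter (1000 genes, 10% mitochondrial UMIs) and under a 1.5-fold rule, and Krt13, higher, in cells with Y-linked UMIs only (1.09; 117 and 256 CPM). The cause was not tested. The type I share was 48.7% and 53.1% under the stricter filter and, per kb of transcript by construction, 57.8% and 62.2%. The log2 ratio of oral Krt4 changed sign to 0.36 in cells with Xist only and 0.16 in cells with Y-linked UMIs only, and that of oral Krt6b to 1.26 in cells with Xist only, where it had 0 and 2 UMIs; the cause was not tested. In oral cells with Xist only, 1 other keratin passed the rule: Krt16, higher (30.0 and 150 CPM, 4 and 43 UMIs). In those with Y-linked UMIs only, 2 others passed. Krt15 was lower (2814 and 1031 CPM) and Krt8 higher (9.16 and 53.3 CPM, 3 and 6 UMIs). With oral cells thinned to 1900 UMIs, all 3 keratin calls there were lost and 1 other keratin passed the rule. Under the stricter filter 2 of the 3 were lost and 1 other passed. The median log2 ratio of -0.19 in whole epithelium stayed below 0 in all alternatives run. Among levels of single keratins 134 values moved by more than their interval and 474 did not. Shares of cells with both members of a pair moved in 27 of 40 values, 13 of 20 at full depth and 14 of 20 with at least 2 UMIs of each gene. Low UMI numbers limit the rare keratins, and rich single cells make counting intervals of oral keratins too narrow.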
